A study of Mus musculus with 4 samples.

Results

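The Krueppel-like factors described here are 9 genes, Klf2, Klf3, Klf4, Klf5, Klf6, Klf7, Klf9, Klf10 and Klf13, chosen by name from the 25289 genes counted in single epithelial cells of adult mouse small intestine. Each was followed by library, by position on the villus and by cell state. The control group holds 2 libraries from C57BL/6J mice of genotype Lats1fl/fl Lats2fl/fl, and the Lats-deleted group holds 2 libraries from C57BL/6J mice of genotype Lrig1-CreERT2 Lats1fl/fl Lats2fl/fl. Both groups carry the loxP-flanked alleles of the Hippo pathway kinases LATS1 and LATS2, both were given 2 mg of tamoxifen intraperitoneally, and both were harvested at day 7. The Cre recombinase, which tamoxifen activates, is carried by the second group alone and is driven from Lrig1, a gene of crypt stem and progenitor cells, so the controls do not account for the recombinase itself. Live epithelial cells (EpCAM+CD45-TER119-DAPI-, 5000 sorted per condition) were barcoded in droplets with inDrop v2. The labels do not say whether the libraries of a group come from separate animals, so p-values reflect only how far these libraries differ, which may be technical.

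Krueppel-like factors are transcription factors with zinc fingers at the carboxyl end that bind GC-rich and CACCC sequences, which they share with the Sp factors. Their other domains differ and recruit coactivators or corepressors such as CtBP and Sin3. In the intestinal epithelium KLF4 is known from differentiated cells of the villus and from goblet cells, where it restrains division, and KLF5 is known from dividing crypt cells, so the pair is often described as opposed. LATS1 and LATS2 phosphorylate the coactivators YAP and TAZ and hold them out of the nucleus, where they act through TEAD factors.

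Cells with at least 1000 counts, 300 or more genes and no more than 30% of counts from the mitochondrial genome were kept, 774 and 515 of them in controls and 726 and 1289 after deletion, from files of 2872497, 2247269, 4731529 and 9191916 counts. Median counts per kept cell were 1708 and 1995 in controls against 3715.5 and 3848, and pairs of libraries shared 4 to 12 kept barcodes. Lats1 was at 20.6 and 32.6 CPM (counts per 1000000 counts) in controls and at 7.58 and 9.78 CPM after deletion. Lats2 was at 8.11 and 9.77 against 29.8 and 21.3 CPM. Which exons were deleted is not in the labels, so these values check the genotype little. All 16 genes of the enterocyte list were detected in each library, with sums of 30624 and 30138 CPM in controls against 2354 and 1153 CPM after deletion. Lats-deleted library 2 stands apart in stomach genes, whose list summed to 9289 CPM there and to between 13.5 and 17.9 CPM in the other libraries. Lats-deleted library 1 stands apart in stromal genes, at 1363 CPM for the list of 8 genes against 149 CPM in library 2 and 33.7 and 25.2 CPM in controls, where Lum was at 0 in library 1. Xist was at 9.35 and 6.51 CPM in controls against 640 and 505 CPM after deletion, so the sex of the source cells and the genotype cannot be told apart.

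The sequences before the start sites of the 3 members on which the results turn, Klf4, Klf6 and Klf2, are shown to set the genes in their promoters. Each is the 250 bases upstream of the RefSeq start on GRCm38.p6, written 5' to 3' on the gene's strand, and capitals mark matches on either strand to the GC-box GGGCGG, to CACCC and to the TEAD sequence GGAATG.
Klf4: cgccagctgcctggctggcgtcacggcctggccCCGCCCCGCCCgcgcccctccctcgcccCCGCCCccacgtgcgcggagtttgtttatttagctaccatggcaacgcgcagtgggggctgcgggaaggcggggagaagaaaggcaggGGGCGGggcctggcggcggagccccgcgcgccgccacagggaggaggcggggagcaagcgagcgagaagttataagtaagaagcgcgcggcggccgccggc
Klf6: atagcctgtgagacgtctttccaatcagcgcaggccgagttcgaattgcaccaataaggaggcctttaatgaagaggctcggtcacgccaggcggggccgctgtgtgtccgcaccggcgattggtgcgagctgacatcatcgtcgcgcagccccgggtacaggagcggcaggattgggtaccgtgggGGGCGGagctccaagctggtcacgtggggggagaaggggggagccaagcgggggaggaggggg
Klf2: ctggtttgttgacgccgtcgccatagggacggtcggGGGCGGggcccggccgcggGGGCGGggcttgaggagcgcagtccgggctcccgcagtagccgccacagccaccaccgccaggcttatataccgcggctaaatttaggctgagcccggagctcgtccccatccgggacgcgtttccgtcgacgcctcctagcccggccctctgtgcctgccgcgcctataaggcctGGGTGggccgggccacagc
Klf4 lies on the minus strand and its window spans chr4:55532476-55532725. The Klf6 window, on the plus strand, is chr13:5861239-5861488, and the Klf2 window, also on the plus strand, is chr8:72318812-72319061. The genes run, in the GENCODE M21 annotation on GRCm38 from which gene coordinates are given here, from 55527143 to 55532466 (Klf4), from 5861482 to 5870394 (Klf6) and from 72319033 to 72321656 (Klf2). GC-boxes matched 4 times in the Klf4 window, 1 time in that of Klf6 and 2 times in that of Klf2, and 32.7% of 32851 mouse windows of this length hold at least 1. CACCC matched 1 time in the Klf2 window and is found in 52.0% of all windows. The Klf2 and Klf6 windows run past the GENCODE starts of these genes, and the CACCC match lies past that of Klf2. Windows were matched for 7 of the 9 members, and GGAATG, found in 12.6% of all windows, is in none of these 7. The AP-1 sequence TGANTCA (6.75% of all windows) matched in Klf9 alone, 89 bases before the start (-89), and the CArG box of serum response factor (1.47%) matched in none of the 7. The Klf4 window had a GC content of 74.0%, that of Klf6 64.8% and that of Klf2 71.2%, against a median of 52.4% over all windows. A match is a description of letters and not of binding.

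Along the villus of control mice, Klf4 and Klf6 rose toward the tip and Klf5 fell. Enterocyte-like cells were ordered by a score, the share of upper villus landmark counts among upper and lower landmark counts, with no Krueppel-like factor in it, and were divided into 3 bands of 186, 185 and 185 cells in control library 1 and of 123, 123 and 122 in library 2. The score is a range without sharp borders, and 144 and 120 cells of the 2 libraries lay within 0.05 of the edge between the lower and middle bands. Of the 7 members tested, 3 were higher in the upper than in the lower band, where 12.1% of 5185 genes tested were called higher, and 2 were lower, where 13.8% were called lower (edgeR quasi-likelihood test with the library as a block, adjusted p under 0.05). The median log2 fold change of the 7 members was 0.75 and that of all genes tested was 0.00.

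Klf4 was at 69.0, 166 and 449 CPM in the lower, middle and upper bands of control library 1. It was at 32.6, 74.5 and 324 CPM in library 2. Both libraries were higher in each successive band, and the upper bands did not overlap the lower ones. The upper over the lower band gave a log2 ratio of 2.92 (SE 0.272, adjusted p = 5.81e-16), or 7.56-fold, which lay between 2.66 and 3.38 over 10 alternative settings.

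Klf6, a factor first known as an early response gene, was at 85.6, 121 and 381 CPM in library 1. In library 2 it was at 88.0, 48.4 and 180 CPM. The upper band was the highest in both libraries, and the lower and middle bands had no common order. Between lower and upper bands its log2 ratio was 1.68 (SE 0.267, adjusted p = 2.12e-07), and it was called in every alternative that gave a test, with adjusted p up to 0.0069.

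Klf3 (chromosome 5, 64803388 to 64832901), which represses through CtBP, was at 85.6, 178 and 207 CPM in library 1 and at 111, 115 and 162 CPM in library 2. Upper over lower band, its log2 ratio was 0.92 (SE 0.274, adjusted p = 0.00656). The call ended with DESeq2 (adjusted p = 0.237), with 5 bands in place of 3 (0.0531) and with each cell thinned to 1000 counts (0.0582).

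Klf5 (chromosome 14, 99298691 to 99315036), the factor of dividing crypt cells, went the other way, with 444, 330 and 266 CPM from the lower to the upper band of library 1 and 469, 361 and 252 CPM in library 2. Both libraries fell at each step. The log2 ratio was -0.81 (SE 0.192, adjusted p = 0.00055), and of the alternatives with a test only DESeq2 ended the call (adjusted p = 0.062). Klf13 (chromosome 7, 63886351 to 63938915) was at 110, 54.4 and 29.5 CPM in library 1 and at 81.5, 44.7 and 54.0 CPM in library 2 (log2 fold change -1.28, SE 0.385, adjusted p = 0.00742). The Klf13 call ended in 4 alternatives, with adjusted p from 0.0588 with thinned cells to 0.291 with DESeq2. Klf7 (log2 fold change 0.75, adjusted p = 0.249) and Klf9 (0.63, adjusted p = 0.236) did not pass the test, and Klf2 and Klf10 had too few counts to be tested.

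**Figure D1:**
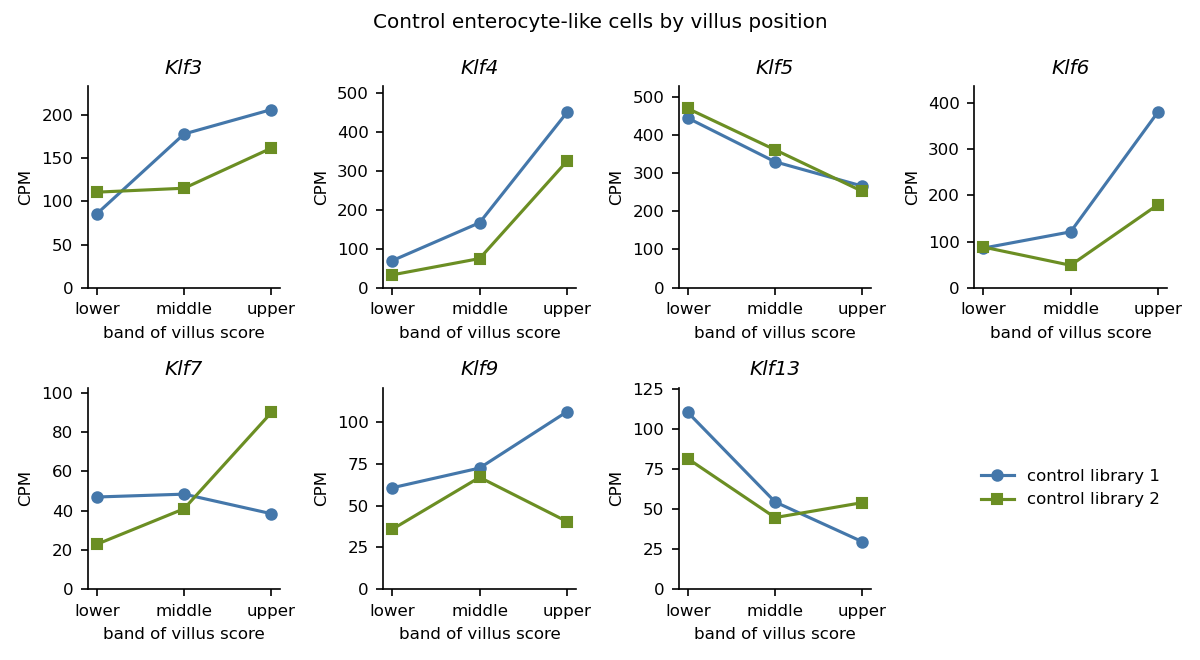
Level in CPM (vertical axes) of the 7 members tested in the lower, middle and upper band of control enterocyte-like cells (horizontal axes), with a line for each control library and no error bars. Klf4 reached 449 and 324 CPM in the upper bands from 69.0 and 32.6 CPM in the lower ones, while Klf5 went from 444 and 469 CPM to 266 and 252 CPM.

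Other measures moved with the position score. The median mitochondrially encoded share went from 9.33% in the lower to 12.6% in the upper band of library 1 and from 6.49% to 10.5% in library 2, and the median counts per cell from 1823.5 to 1560 and from 2427 to 1648. A list of 12 immediate early genes such as Fos and Junb, chosen after the data were seen, summed to 617 CPM in the lower and 1295 CPM in the upper band of library 1 and to 391 and 1087 CPM in library 2. The leukocyte list of 9 genes, which includes the antigen presentation gene Cd74, went from 136 to 887 CPM and from 63.1 to 620 CPM. The part of these in the rise of Klf4 and Klf6 was not tested.

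Across cell states, Klf4 and Klf5 levels ran in largely opposite order in the control epithelium. Cells were clustered without any Krueppel-like or Sp gene, and the levels are a description with no test, in CPM of the plain total of each cluster within a library of at least 20 cells. Klf4 was lowest in stem-like cluster 5, at 27.8 and 17.7 CPM, and highest in cluster 11, at 522 and 461 CPM. Cluster 11 was left unnamed, since Zg16, Muc2 and Tff3 of goblet cells and Defa24, Defa17 and Lyz1 of Paneth cells led it together. Enterocyte-like cluster 7, led by the tip genes Ada and Slc28a2 and also by the antigen presentation genes H2-Aa and Cd74, was close to cluster 11 at 459 and 425 CPM, within the counting intervals. Enterocyte-like cluster 1, led by lower villus genes such as Reg1 and Ccl25, was at 40.5 and 43.5 CPM, and cluster 3, led by Pck1 and Lct, was between them at 227 and 101 CPM.

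Among control clusters, Klf5 was highest in stem-like cells, at 664 and 530 CPM. It was at 385 and 421 CPM in cluster 1, at 329 and 318 CPM in cluster 3 and at 158 and 208 CPM in tip-like cluster 7, with cluster 11 at 269 and 178 CPM. The counting intervals of clusters 1 and 3 overlapped in both libraries. Small enterocyte-like cluster 13, of 31 and 21 cells, was at 448 and 242 CPM of Klf5 and at 61.8 and 121 CPM of Klf4. In Lats-deleted clusters that were neither stromal-like nor enterocyte-like, Klf5 ran from 311 to 607 CPM. Over 27 sums of a cluster in a library, 12 of controls and 15 of Lats-deleted libraries, Klf4 and Klf5 correlated at r = -0.53. Klf3 and Klf6 correlated at r = 0.63, both on log2(CPM + 10). No correlation was taken over the control sums alone. These sums share libraries and depths, so the correlations are descriptions.

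Klf6 was lower in most control states than in most Lats-deleted ones. Among 12 control sums it ran from 35.3 CPM in the stem-like cells of library 2 to 392 CPM in tip-like cluster 7 of library 1, with a median of 113 CPM. Among 15 Lats-deleted sums it ran from 73.6 to 915 CPM, with a median of 435 CPM. The ranges overlapped, as 4 Lats-deleted sums were below the highest control sum. These were enterocyte-like cluster 1 (73.6 CPM) and stromal-like cluster 12 (158 CPM) of library 1, and stomach-like cluster 14 (150 CPM) and unnamed cluster 0 (349.6 CPM) of library 2. The highest values were in regenerative-like cluster 2, led by Thbs1, Ankrd1 and Krt14, at 915 and 681 CPM in libraries 1 and 2. Unnamed cluster 8, led by Clca4a and Reg3b, followed at 827 and 581 CPM. Its best list was also the regenerative one, with 7 markers passing. The list's mean log2 fold there was 0.246, where a name needed more than 0.5, against 0.613 in cluster 2. Cluster 2 held 56.7% of the Klf6 counts of Lats-deleted library 1 (exact 95% interval 54.8% to 58.7%) in 27.7% of its cells, and 28.6% of those of library 2 (26.8% to 30.3%) in 13.8% of its cells. Such intervals cover counting error only. Cells of cluster 2 were deep, with a median of 6335 counts, so its share of cells understates its share of all counts. It held 1552224 of the 3562565 counts of all genes in library 1 and 1074060 of 5826856 in library 2.

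**Figure D2:**
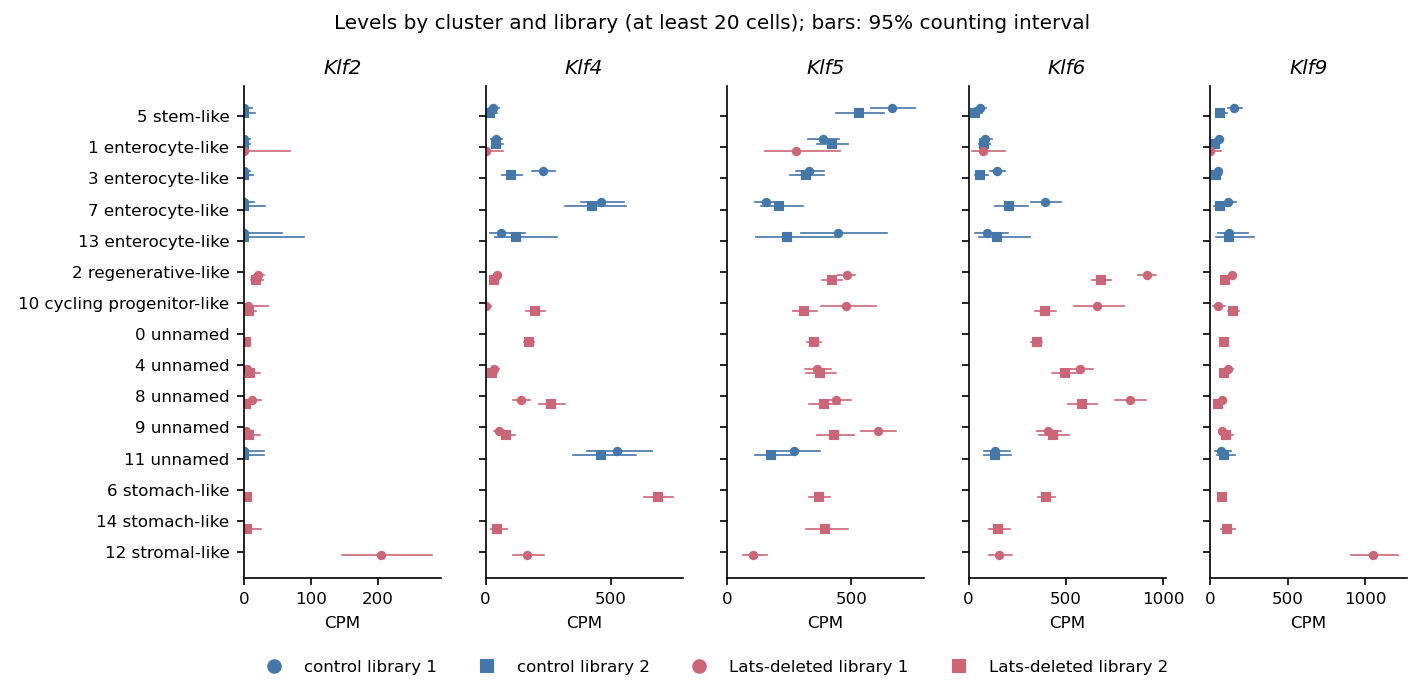
Levels in CPM (horizontal axes) of Klf2, Klf4, Klf5, Klf6 and Klf9 in each cluster with at least 20 cells in a library (vertical axis), with a point for each library and bars for the 95% counting interval. Klf6 is highest in regenerative-like cluster 2 (915 and 681 CPM in Lats-deleted libraries 1 and 2). Among control clusters Klf5 is highest in stem-like cluster 5 (664 and 530 CPM). It is at 607 CPM in cluster 9 of Lats-deleted library 1. Klf2 and Klf9 are highest in stromal-like cluster 12 of Lats-deleted library 1, at 205 CPM (Klf2) and 1052 CPM (Klf9).

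Klf4 in the Lats-deleted libraries was divided between cell states and between libraries. It was at 43.8 and 32.6 CPM in regenerative-like cluster 2 and at 35.1 and 23.7 CPM in cluster 4, an unnamed cluster led by genes of pancreatic enzymes such as Ctrb1. The highest level was in stomach-like cluster 6, found in Lats-deleted library 2 alone, at 687 CPM. Cycling progenitor-like cluster 10 had no Klf4 count in the 27 cells of library 1, where 3 counts would be 18.9 CPM, and was at 197 CPM in the 110 cells of library 2. The 2 libraries thus differed within 1 cluster by more than the counting error.

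Klf7, Klf3, Klf10 and Klf13 were at most 251 CPM in any sum. Klf7 (chromosome 1, 64029447 to 64122282), a factor studied mostly in neurons, ran from 0 to 100.04 CPM over control sums, and its highest sums were the regenerative-like cells of Lats-deleted library 2, at 197 CPM, and the stromal-like cells of library 1, at 168 CPM. Klf3 ran from 48.4 to 194 CPM in controls and from 92.0 to 251 CPM in Lats-deleted sums. Klf10 (chromosome 15, 38291463 to 38300706), an early gene of TGF-beta signalling, was at most 63.2 CPM in controls, in cluster 11, and at most 78.4 CPM in Lats-deleted libraries, in cluster 8. Klf13 ran from 25.3 to 169 CPM and from 36.8 to 142 CPM. Klf10 levels rest on few counts per sum and carry wide intervals.

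In the sum of all kept cells, Klf6, Klf7 and Klf2 were higher in the Lats-deleted libraries, and the other 6 members did not pass the test. All 9 members passed the filter on low counts. Klf2, with no count in controls, passed it through the Lats-deleted libraries alone and could only be called higher. The 3 called, all higher, stand beside 30.8% of 12561 genes tested that were called in either direction and 15.3% that were called higher. The median log2 fold change of the members was 0.51 and that of all genes tested 0.05. In such sums, fewer cells of a type and less RNA per cell cannot be told apart.

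Klf6 stood at 169 and 93.2 CPM in controls against 642 and 416 CPM after deletion. The groups did not overlap, and the lowest Lats-deleted library was above both controls. This is a 4.02-fold difference, a log2 fold change of 2.01 (SE 0.365) at an adjusted p of 0.0074. Where 1 library is left out, the group it leaves has 1 library, assumed to vary like the other group, which alone gives the spread. Without control library 2 the log2 fold change was 1.66 and the call ended (adjusted p = 0.0919), and it was kept in the other 16 alternatives, at 1.66 to 2.54.

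Klf7 was at 51.0 and 62.4 CPM in controls and at 89.8 and 117 CPM after deletion, again without overlap. The log2 difference was 0.87 (SE 0.238, adjusted p = 0.0326). Over 17 alternatives that difference lay between 0.65 and 1.12. The call ended with DESeq2 (adjusted p = 0.0704) and where either control library was left out, which leaves 1 control library. Klf10 had a change of the same size, from 26.9 and 17.6 CPM to 46.7 and 35.9 CPM (log2 fold change 0.87, SE 0.306), which did not pass at an adjusted p of 0.071. It passed in 6 of 17 alternatives, of which that without Lats-deleted library 2 (adjusted p = 0.00173) takes its spread from the controls alone.

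Klf3 was at 158 and 128 CPM in controls and at 161 and 166 CPM after deletion (log2 fold change 0.19, adjusted p = 0.544). Klf5 was at 433 and 394 against 411 and 348 CPM (-0.12, adjusted p = 0.708). The 2 groups overlapped for Klf5. Klf13, expressed in many tissues, was at 81.4 and 61.5 against 97.7 and 79.1 CPM (0.30, adjusted p = 0.377), with overlap. The sign for Klf5 depends on the scaling, as plain library totals moved the median of all genes from 0.05 to 0.30 and gave Klf5 0.13.

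**Figure D3:**
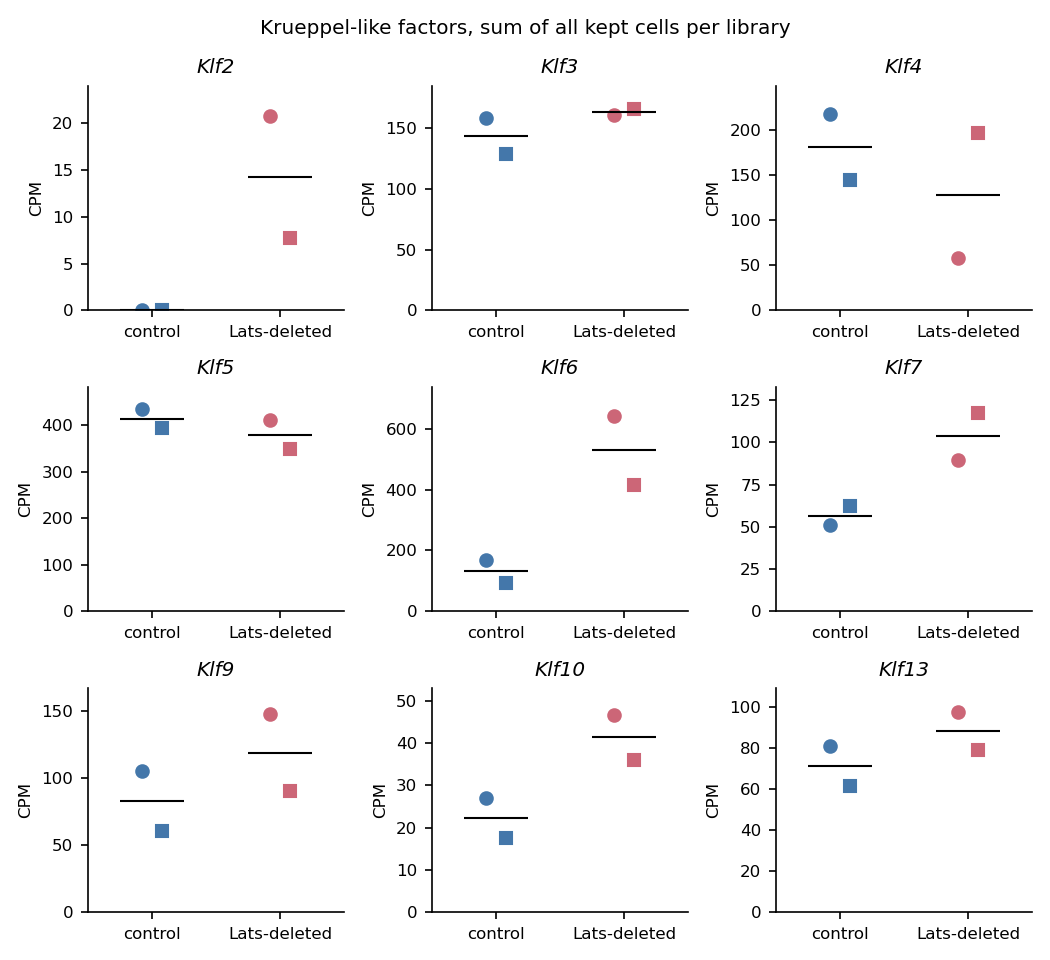
Level in CPM (vertical axes, each with its own scale) of the 9 members in the sum of all kept cells, with a point per library (circle for library 1, square for library 2) and a line at the mean of each group of 2. Klf6 is at 169 and 93.2 CPM in controls and at 642 and 416 CPM after deletion, Klf2 is at 0 in both controls, and the points of Klf4 after deletion, 58.2 and 197 CPM, lie on either side of control library 2 at 145 CPM.

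Klf4 showed a large difference between the 2 Lats-deleted libraries. It was at 218 and 145 CPM in controls and at 58.2 and 197 CPM after deletion, so that 1 Lats-deleted library was below both controls and the other was between them. Its log2 fold change in all kept cells was -0.51 (SE 0.532, adjusted p = 0.515). Stomach-like cluster 6 held 46.2% of the Klf4 counts of Lats-deleted library 2 (exact 95% interval 43.4% to 49.1%), and unnamed cluster 0, led by Muc1, Krt4 and Cldn18, held 26.0% (23.6% to 28.6%). The best list of cluster 0 was that of division genes, with a mean log2 fold of 1.159 and 17 markers passing. It was left unnamed since Cldn18, of the stomach list, was among its leading genes. With the stomach-like and stromal-like clusters left out, the log2 fold change was -1.03 and did not pass (adjusted p = 0.0795). With the stomach-like clusters and cluster 0 left out it was -1.21 (adjusted p = 0.0126), and with stromal-like cluster 12 also left out it was -1.25 (adjusted p = 0.0111). These last settings were chosen after the data were seen, and they remove the clusters that held most Klf4 counts of library 2. Without Lats-deleted library 1 the log2 fold change was 0.11 (adjusted p = 0.686) and without Lats-deleted library 2 it was -1.66 (adjusted p = 1.45e-12), where the controls alone give the spread and the difference between the Lats-deleted libraries is not in the test.

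Klf2, best known as the flow-responsive factor of endothelium and a factor of lymphocyte trafficking, had no count in either control library. Lats-deleted libraries held 81 and 48 counts, or 20.8 and 7.80 CPM. Klf2 passed the filter through these libraries alone, so its test could only call it higher. Taking 3 counts over the control group as the floor, 1.18 CPM, Klf2 was at least 10.9-fold higher (adjusted p = 0.0138). Over the same floor it was at least 6.63-fold higher in Lats-deleted library 2 alone and at least 7.02-fold higher without stromal-like cells. The call ended without control library 1 (adjusted p = 0.0875) and without control library 2 (0.0648), and Klf2 was not tested with thinned cells.

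Stromal-like cluster 12, of 72 cells in Lats-deleted library 1 and 8 in library 2, held 48.1% of the Klf2 counts of library 1 (exact 95% interval 36.9% to 59.5%) and 18.8% of those of library 2 (8.95% to 32.6%). Its level in library 1 was 205 CPM. Regenerative-like cluster 2 held 39.5% (28.8% to 51.0%) and 39.6% (25.8% to 54.7%) at 20.6 and 17.7 CPM. The other Lats-deleted clusters that are not enterocyte-like ran down to 2.16 CPM. Of the cell types known for Klf2, the endothelial list of 5 genes summed to 23.7 and 22.8 CPM in controls and to 35.6 and 19.6 CPM after deletion. The leukocyte list was lower after deletion, at 97.1 and 97.7 CPM against 459 and 715 CPM in controls. That list includes Cd74, also a leading gene of enterocyte-like cluster 7. Ptprc, another of its genes, was at 19.3 and 18.7 CPM in controls and at 17.1 and 15.3 CPM after deletion. All 5 endothelial genes were detected in each library, while of the 9 leukocyte genes Cd3g was at 0 in both control libraries, Cd3e in control library 2 and Lats-deleted library 1, and Gzma in Lats-deleted library 2. Without stromal-like cluster 12 Klf2 stayed called (adjusted p = 0.00983).

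Klf9 (chromosome 19, 23141226 to 23168134), a factor induced by glucocorticoid and thyroid hormone, was at 105 and 60.6 CPM in controls and at 147 and 90.3 CPM after deletion, with overlap (log2 fold change 0.51, adjusted p = 0.305). Stromal-like cells of Lats-deleted library 1 had 1052 CPM of Klf9, while every other sum was at most 157 CPM. They held 34.8% of the Klf9 counts of that library (exact 95% interval 30.9% to 38.9%) in 9.92% of its cells. Without stromal-like cluster 12 the log2 fold change was 0.21 (adjusted p = 0.611). Without Lats-deleted library 2 it was 0.80 and called (adjusted p = 0.000565), with the spread from the controls alone and the stromal-like cells in the library kept.

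Klf6 rose in the progenitor class and did not pass the test in enterocyte-like cells. The progenitor class joins stem-like cluster 5 and cycling progenitor-like cluster 10. In controls it is cluster 5 alone, with 153 and 97 cells. After deletion it has 33 and 116 cells, of which 27 and 110 are of cluster 10, so different clusters stand behind the 2 groups. Unnamed cluster 0, with 4 and 407 Lats-deleted cells and the list of division genes as its best list, is not in the class. Klf6 was at 71.7 and 41.5 CPM in control progenitors and at 632 and 415 CPM in Lats-deleted ones. That is a log2 difference of 3.14 (SE 0.371, adjusted p = 0.000413), or 8.83-fold, which was called in all 12 alternatives. It was the 1 member called of 7 tested, where 11.2% of 4955 genes tested were called higher.

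Klf5 was at 812 and 622 CPM in control progenitors and at 530 and 332 CPM in Lats-deleted ones, without overlap (log2 fold change -0.76, SE 0.299). The adjusted p was 0.0903, and it was 0.00233 without Lats-deleted library 1, with the spread from the controls alone. Klf7 was at 60.4 and 77.8 CPM against 90.3 and 152 CPM (0.89, adjusted p = 0.139). Klf3, Klf9, Klf10 and Klf13 had log2 fold changes between -0.21 and 0.23 and did not pass the test. Klf4, not tested by its filter, had 9 and 4 counts in control progenitors and 0 and 111 in Lats-deleted ones, so all of the latter were from library 2.

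In enterocyte-like cells 0 of 7 members were called, where 0.161% of 5587 genes tested were called in either direction (9 genes with edgeR, 2 with DESeq2, and 401 with an unadjusted p under 0.05). The class holds 556 and 368 cells in controls but 36 and 20 in Lats-deleted libraries, so even large changes could go undetected at this depth. Klf6 was at 196 and 101 CPM in controls and at 116 and 38.5 CPM after deletion (log2 fold change -0.80, adjusted p = 0.784). Klf4 was at 227 and 129 against 105 and 77.0 CPM (-0.94, adjusted p = 0.688). Klf9 had 1 and 0 counts in the Lats-deleted libraries against 82 and 38 in controls. It did not pass at a log2 fold change of -3.13 (adjusted p = 0.474). Klf4 and Klf9 were the 2 members with an unadjusted p under 0.05.

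The Lats effect on Klf6 differed between the 2 classes when that difference was tested. Its log2 fold change in the progenitor class exceeded that in the enterocyte-like class by 4.15 (SE 0.518, adjusted p = 6.41e-05), and it was called in all 7 alternatives, at 4.13 to 6.03. Of 8 members tested, only Klf6 was called, where 8.07% of 5933 genes tested were called in either direction. Klf4 had a difference of 2.67 (SE 0.940, adjusted p = 0.095), which was -5.29 without Lats-deleted library 2. Since cluster 10 is a dividing state and cluster 5 is a stem-like one, state and genotype are joined in this comparison and cannot be told apart.

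**Figure D4:**
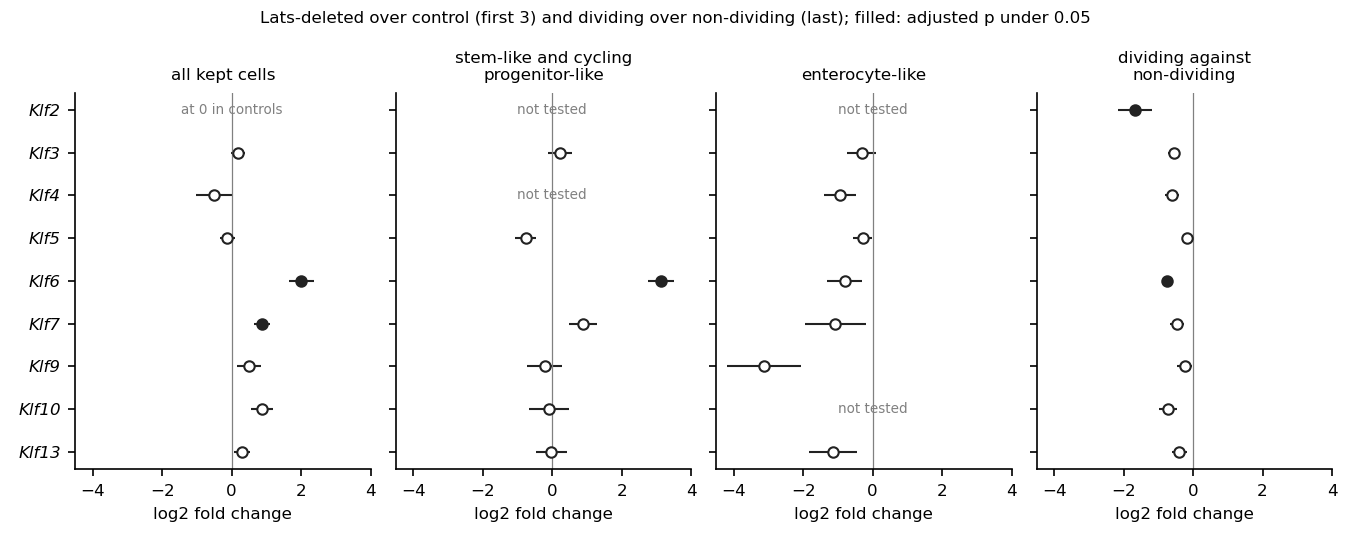
Log2 fold changes (horizontal axes) of the 9 members (vertical axis) with bars of 1 standard error, for Lats-deleted over control in all kept cells, in the progenitor class and in enterocyte-like cells, and for dividing over non-dividing Lats-deleted cells. Filled points have an adjusted p under 0.05, and Klf6 is filled at 2.01 in all cells, at 3.14 in the progenitor class and at -0.76 in dividing cells.

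Within the Lats-deleted libraries, Klf6 was lower in dividing than in non-dividing cells. Cells with at least 3 counts of a list of division genes among 1000 thinned counts (94 and 483 cells) were compared with cells with 0 (309 and 320 cells), with stromal-like cells left out. Klf6 was at 834 CPM in non-dividing and 513 CPM in dividing cells of library 1 and at 616 and 352 CPM in library 2 (log2 fold change -0.76, SE 0.131, adjusted p = 0.0036). Both libraries moved the same way. Dividing cells nevertheless had more Klf6 than the 35.3 to 58.7 CPM of control stem-like cells, a difference that was not tested. The call ended with DESeq2 (adjusted p = 0.0807) and without the library as a block (0.202).

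Klf2 was at 16.7 and 4.29 CPM in non-dividing and dividing cells of library 1 and at 12.7 and 4.24 CPM in library 2 (log2 fold change -1.67, SE 0.501, adjusted p = 0.0443). The call rests on 43 against 12 counts and ended in 6 of the 7 alternatives with a test, among them DESeq2 (adjusted p = 0.524). Klf2 and Klf6 were the 2 of 9 members called lower, where 9.01% of 10628 genes tested were called lower. The other 7 members had log2 fold changes from -0.72 (Klf10, adjusted p = 0.0906) to -0.16 (Klf5, adjusted p = 0.485), against a median of -0.01 over all genes tested. Klf4 was at 74.9 and 47.2 CPM in library 1 and at 275 and 185 CPM in library 2 (-0.60, adjusted p = 0.0561). Without the stomach-like clusters its value was 0.08. The immediate early list moved with division state, at 1846 CPM in non-dividing and 1186 CPM in dividing cells of library 1 and at 1697 and 912 CPM in library 2, and its part in the Klf6 difference was not tested. The stomach list was at 14.4 and 11.0 CPM in non-dividing and dividing cells of library 1 and at 16207 and 5392 CPM in library 2. The enterocyte list was at 2891 and 911 CPM in library 1 and at 2532 and 253 CPM in library 2, and its part was not tested. Without the stomach-like clusters the Klf6 log2 fold change was -0.71 (adjusted p = 0.00565).

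The same list was also higher in the sum of all Lats-deleted cells, at 1638 and 1258 CPM against 718 and 580 CPM in controls. Of its members, Dusp1, a phosphatase of MAP kinases, was at 2.12 and 6.15 CPM in controls and at 204 and 119 CPM after deletion (log2 fold change 5.33, adjusted p = 0.000561). Atf3, a stress-induced factor, went from 7.79 and 7.03 CPM to 94.7 and 51.3 CPM (3.28, adjusted p = 0.00185). Junb and Egr1, transcription factors, had log2 fold changes of 1.62 and 2.10 (adjusted p = 0.00204 and 0.0228). Of the 12 genes, 7 were called higher and 0 lower, beside 15.3% and 15.5% of all genes tested. The part of this list in the Klf6 rise was not tested.

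Genes most like each member over the 27 sums were sought among 3247 genes, as a description. Those nearest to Klf6 were Ezr (r = 0.93), the gene of ezrin, which links actin to the membrane, Ahnak (0.93) and Tpm1 (0.92), the gene of a tropomyosin. Nearest to Klf4 was Ssfa2 (0.88), followed by Oasl1 and the sulfate transporter gene Slc26a2 (both 0.74). Nearest to Klf5 were Nedd8 (0.81), the gene of a ubiquitin-like modifier, Tmem238 (0.79) and Ap1m2 (0.77), the gene of an epithelial clathrin adaptor. Klf9 was nearest to Arl6ip5 (0.78), Gas6 (0.77) and Sparc (0.73), the last of which is on the stromal list. Klf3 was nearest to Otud7b (0.81), Klf7 to Rnf44 (0.86) and Klf13 to Exoc4 (0.64). Klf2 and Klf10 were too low for this measure.

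The relatives and partners of these factors moved in both directions in the sum of all kept cells. Of 8 other Klf genes, 3 passed the filter and Klf16 alone was called higher, where 15.3% of all genes tested were called higher. Klf16 was at 15.6 and 14.1 CPM in controls and 28.2 and 31.2 CPM after deletion (log2 fold change 1.00, SE 0.276, adjusted p = 0.0343). Of the Sp genes, 7 of 9 were tested and 2 were lower, where 15.5% of all genes tested were called lower. Sp5, a target of Wnt signalling in crypts, went from 29.0 and 26.4 CPM to 4.62 and 4.06 CPM (-2.67, SE 0.321, adjusted p = 0.00148). Sp6 went from 11.3 and 12.3 CPM to 2.31 and 0.975 CPM (-2.90, adjusted p = 0.00679). Sp4 and Sp3 did not pass (adjusted p = 0.0595 and 0.346). Along the control villus, Sp5 was higher in the upper than in the lower band, where 12.1% of genes tested were called higher. It went from 16.6 to 65.0 CPM in library 1 and from 9.78 to 85.5 CPM in library 2 (2.43, adjusted p = 0.000207).

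Of 12 cofactors and ubiquitin ligases, 4 were higher and 0 lower. Ctbp2, the corepressor, went from 24.8 and 29.9 CPM to 80.6 and 73.4 CPM (2.82-fold, adjusted p = 0.0037), and the deacetylase gene Hdac1, the scaffold gene Sin3b and the ligase gene Smurf1 had log2 fold changes of 1.05, 0.89 and 1.03. These 4 of 12 stand beside the 15.3% of all genes called higher. In the kinase arm from MEK5 to ERK5 and MEF2, upstream of Klf2 and Klf4 in endothelium, 1 of 7 genes was called (15.3% of all genes tested were called higher), Map3k3, at 8.50 and 11.4 CPM in controls and 30.8 and 27.3 CPM after deletion (1.55, adjusted p = 0.0109). The ERK5 gene Mapk7 did not pass (1.08, adjusted p = 0.0805).

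In the TGF-beta arm, 4 of 8 genes were higher and 0 lower, with a median log2 fold change of 1.02, beside 15.3% and 15.5% of all genes tested. The receptor gene Tgfbr2 went from 4.96 and 7.91 CPM to 114 and 64.3 CPM (3.81, SE 0.432, adjusted p = 0.00116). The ligand gene Tgfb2 went from 1.42 and 6.15 CPM to 134 and 45.6 CPM (4.63, adjusted p = 0.00552). Both were higher in each Lats-deleted library than in each control. Smad2 and Smad3, the receptor-activated transducers, had log2 fold changes of 1.36 and 1.27 (adjusted p = 0.0118 and 0.0215).

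Beside Klf9, 2 of 6 glucocorticoid and circadian genes were lower and 0 higher, beside 15.5% and 15.3% of all genes tested. The glucocorticoid receptor gene Nr3c1 went from 146 and 124 CPM to 51.8 and 50.3 CPM (-1.40, SE 0.203, adjusted p = 0.00303). Its target Fkbp5 went from 109 and 94.9 CPM to 22.6 and 29.7 CPM (-1.96, adjusted p = 0.00149). Klf9 itself did not pass, and the target Sgk1 did not (-0.87, adjusted p = 0.257). Sgk1 rose with villus position in controls, from 395 to 1244 CPM and from 97.8 to 815 CPM between the lower and upper bands (2.11, SE 0.184, adjusted p = 2.03e-17).

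Of 9 reported targets of KLF4 and KLF5, 4 were higher and 1 lower after deletion, beside 15.3% and 15.5% of all genes tested. Alpi, the brush border phosphatase, went from 4989 and 4031 CPM to 170 and 66.8 CPM (-5.26, SE 0.509, adjusted p = 0.000631). The cyclin gene Ccnd1 went from 54.5 and 62.4 CPM to 977 and 865 CPM (3.98, SE 0.252, adjusted p = 0.000202). Egfr and Cdk1 were also higher, with log2 fold changes of 1.96 and 2.07. Along the control villus, Alpi was higher in the upper band (0.74, adjusted p = 1.61e-09), and so was the cell cycle inhibitor gene Cdkn1a (0.91, adjusted p = 0.000114), which was named after its value was seen. The 3 reported KLF2 targets, Thbd, Nos3 and S1pr1, did not pass the filter on low counts and were not tested. Thbd had 3 and 0 counts in controls and 71 and 9 in Lats-deleted libraries 1 and 2. Nos3 had 3 and 4 against 8 and 9, and S1pr1 had 1 and 1 against 2 and 8.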

How the data were processed

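The authors deposited whole-number counts in 1 file per library, where lines are cell barcodes and columns are gene symbols, per the file headers. The submitters' processing notes name Bowtie 1.1.1.1, the build mm10, RSEM 1.3.0 and SAMtools 1.3.1 without saying what each did. No source says if molecular identifiers were counted. Barcodes were kept with at least 1000 counts, 300 or more genes and no more than 30% of counts from mitochondrial genes, 3304 in all. Cells were clustered with scanpy 1.11.5 and leidenalg 0.10.2 (2000 variable genes, none a Klf or Sp gene, 30 components, 15 neighbours, resolution 1, seed 1). A cluster is called "-like" where at least 3 markers of a list were 1.5-fold above the other cells and its 10 leading genes held no more markers of another list, with every alpha-defensin gene taken as a Paneth gene after the data were seen. No doublet caller was run.

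The library was the replicate. Counts were summed per library and cell class, passed through filterByExpr, TMM scaling and the quasi-likelihood test of edgeR 4.0.16 (R 4.3.3), with Benjamini-Hochberg adjustment over all genes tested and a threshold of 0.05. The SE printed with a log2 fold change is its absolute value over the square root of the F statistic of that test. DESeq2 1.42.0 was an alternative. CPM use TMM-scaled totals, and the plain total in clusters and list sums. The tests were also run on simulated counts with the same spread between libraries for all genes. Such counts cannot show how the tests do with libraries as unlike as the Lats-deleted ones. The members and lists were chosen with earlier results of these data known. All members are described, and of each other list up to 4 genes of smallest p in the sum of all kept cells were named, and likewise of the immediate early list, which was added later. Like genes were the 3 of highest Pearson r, among genes with a mean of at least 50 CPM and a name that is no predicted gene model.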

Additional observations from a re-analysis of the deposited data

Results flagged for a closer look

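The Lats effect on Klf6 differed between cell classes. The log2 fold change of Lats-deleted over control was larger by 4.15 in the progenitor class than in enterocyte-like cells (edgeR class-by-genotype term, SE 0.518, adjusted p = 6.41e-05), with the library as a block. Progenitor sums held 19 and 8 Klf6 counts in controls and 105 and 221 after deletion, and enterocyte-like sums held 200 and 80 in controls and 10 and 2 after deletion. The control progenitors were stem-like cluster 5 alone. Of the 33 and 116 Lats-deleted ones, 27 and 110 cells were of cycling progenitor-like cluster 10. Cell state and genotype therefore cannot be told apart in this term.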

How the results depend on the processing

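The 2 libraries per group limit all tests, and the Lats-deleted enterocyte-like sums of 36 and 20 cells limit what can be seen in that class. The number of genes called in all kept cells lay between 1228 and 5387 when 1 library was left out. It lay between 780 and 1557 in the progenitor class, between 2 and 25 in enterocyte-like cells and between 190 and 554 for the class difference. In the progenitor class DESeq2 called 630 genes, a minimum of 2000 counts per cell 813, thinned cells 526 and a class from marker scores 819, against 1233. In enterocyte-like cells DESeq2 called 2, the setting with no filter beyond 1 count 62 and thinned cells 14, against 9. Thinned cells gave 255 genes for the class difference, against 479, and 774 with villus position, against 1339, where DESeq2 gave 522. Between dividing and non-dividing cells DESeq2 called 421 genes and the fit with no replicate block 187, against 1779.

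Replicate numbers were not taken as pairs, since same-numbered libraries deviated together little (r = 0.07 across 12561 genes). With the number as a replicate block, 4162 genes were called in all kept cells and 27 in enterocyte-like cells, Klf10 passed in all kept cells (adjusted p = 0.0356) and Klf5 in the progenitor class (0.0447). In that class the block gave log2 fold changes of 0.16 for Klf10 and 0.015 for Klf13, neither of which passed.

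The log2 fold changes that changed sign were all of members that had not passed. In all kept cells Klf5 was 0.079 with no filter and 0.13 with plain totals, and Klf4 lay between -1.66 and 0.11 with 1 library left out. In the progenitor class Klf10 was 0.11 with DESeq2 and 0.082 with no filter, and Klf13 was 0.12 with no filter, 0.12 with at least 2000 counts and 0.29 with thinned cells. There, with 1 library left out, Klf3 lay between -0.0098 and 0.47, Klf9 between -1.18 and 0.58, Klf10 between -0.49 and 0.60 and Klf13 between -0.57 and 0.61. In enterocyte-like cells Klf3 lay between -1.45 and 0.027 and Klf7 between -7.89 and 0.17. For the class difference Klf4 lay between -5.29 and 4.45 and Klf5 between -0.54 and 0.18, and Klf5 was 0.33 with no filter. Along the villus Klf7 lay between -0.30 and 1.96, and in dividing cells Klf9 lay between -0.46 and 0.11 and Klf13 between -0.75 and 0.046. In dividing cells Klf4 was 0.078 without the stomach-like clusters and 0.0052 also without the Cldn18 cluster, where Klf9 was 0.057. The causes were not tested. Enterocyte-like cells with at least 2000 counts (10 in 1 library) and from marker scores (17) were too few to be fitted.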
